A study of Mus musculus with 2 samples.

Results

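Heat shock proteins and chaperones are described here in lung endothelial cells of mice that had received melanoma cells or saline. The 37 genes were taken by symbol from the 31053 genes counted, and all 37 were present. They comprised 17 cytosolic members, 3 mitochondrial members, 10 members of the endoplasmic reticulum and 7 subunits of CCT, the ring-shaped cytosolic chaperonin. Hsf1, which is placed with the cytosolic members, encodes a transcription factor and not a chaperone.

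Wild-type C57BL/6 mice received PBS (control library) or 200000 B16-F10 cells per mouse, a mouse melanoma line, through the tail vein, and lungs were taken after 6 h. Lungs of both groups were minced, digested with collagenase for 1 h at 37 °C and sorted for PECAM1, an endothelial surface protein. Each group was 1 droplet library of pooled cells from 2 mice, so no value has a replicate, no test was made and the intervals cover counting error only. Differences between the mice, the sorts and the libraries cannot be told apart from the treatment, and tail vein injection places tumor cells in lung capillaries without a primary tumor.

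The libraries held 67929614 (control) and 64733724 (metastatic) unique molecular identifiers (UMIs, 1 per captured RNA molecule). Barcodes with 1000 to 5000 genes and under 20% mitochondrial UMIs gave 7134 control and 6466 metastatic cells, of which 16 barcode sequences occurred in both libraries. General capillary cells, defined by at least 2 of Gpihbp1, Aplnr, Kit and Lpl and by no other class, numbered 5020 and 4519. Aerocytes, the large capillary cells of the gas exchange surface, numbered 1364 and 1086 by at least 2 of Ednrb, Fibin and Tbx2. Vein cells (at least 2 of Slc6a2, Car8 and Bst1) numbered 247 and 304, and artery cells (at least 2 of Gja5, Bmx and Fbln5) 63 and 59. Control cells and metastatic cells denote the endothelial cells of each library, not tumor cells. At least 2 of Pecam1, Cdh5 and Cldn5 were detected in 96.4% or more of the cells of each class. Median depth in general capillary cells was 5950.5 control and 6275 metastatic UMIs. The summed level of the 4 general capillary markers in that class was 3657 CPM (counts of UMIs scaled to a class total of 1000000) for control cells and 3162 CPM for metastatic cells.

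Chaperones bind unfolded protein and help it fold, or hold it until it can be refolded or degraded. In the heat shock response HSF1 binds repeats of GAA in heat shock elements and drives HSP70, HSP110, HSP40 and HSP90 genes. A separate response, that of unfolded protein in the endoplasmic reticulum, acts on chaperones of that compartment through ATF6 and XBP1. Enzymatic digestion of tissue at body temperature is also known to induce immediate early and heat shock genes, and both libraries went through it.

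The sequences before the start sites were taken from RefSeq (GRCm38.p6, the assembly of mm10), and windows were found for 30 of the 37 genes. None was found for Cct4, Cryab, Hsf1, Hsp90aa1, Hsp90ab1, Hspa8 and Hspa9, and Cryab had the largest ratio between classes, in vein cells. Hspa1a and Hspa1b, which encode the inducible HSP70, had the largest ratios between libraries in general capillary cells. Hspb1, which encodes the small heat shock protein HSP27, had the largest ratio of aerocytes to general capillary cells. The stretches of Hspa1a, Hspa1b and Hspb1 are shown here. Each gives the 250 bases before the start on the strand of the gene, and capitals mark GAANNTTC, a pair of inverted GAA repeats.
Hspa1a, chr17:34972157-34972406, minus strand: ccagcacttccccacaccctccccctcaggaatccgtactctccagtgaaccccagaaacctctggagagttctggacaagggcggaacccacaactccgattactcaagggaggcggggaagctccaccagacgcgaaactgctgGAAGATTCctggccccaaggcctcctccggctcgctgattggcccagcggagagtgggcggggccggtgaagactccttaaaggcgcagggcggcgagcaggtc
Hspa1b, chr17:34959239-34959488, minus strand: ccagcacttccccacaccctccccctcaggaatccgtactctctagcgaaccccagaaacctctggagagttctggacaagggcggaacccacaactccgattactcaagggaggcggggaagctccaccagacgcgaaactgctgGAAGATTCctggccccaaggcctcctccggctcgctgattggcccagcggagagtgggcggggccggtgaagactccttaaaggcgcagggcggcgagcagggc
Hspb1, chr5:135887669-135887918, plus strand: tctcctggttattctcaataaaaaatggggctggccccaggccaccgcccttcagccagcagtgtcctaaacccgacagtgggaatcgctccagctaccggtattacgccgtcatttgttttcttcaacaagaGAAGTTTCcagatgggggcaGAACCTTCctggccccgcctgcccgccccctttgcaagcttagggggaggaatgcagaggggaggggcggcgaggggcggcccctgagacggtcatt

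The stretches of Hspa1a and Hspa1b were identical at 247 of 250 bases and held the pair at the same place, from -104 to -97, with the start base counted as 0. Such a pair, in the form GAANNTTC or TTCNNGAA, each of which reads the same on both strands, was found in the windows (250 bases before to 50 after the start) of 12 of the 30 members, and in 17.0% of 27025 genes. Of the 12 cytosolic members with a window 8 held one (Hspa1a, Hspa1b, Hsph1, Hspb1, Dnaja1, Dnajb4, Dnajb6 and Bag3), and Dnajb1, an HSP40, held none. Only exact matches inside the windows were counted, so a gene without a match may hold a site of other spelling or place.

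The longer heat shock element of GAA, TTC and GAA, each 2 bases from the next, was searched on both strands. It contains the pair and was found in the windows of 0.662% of the genes and of 4 members. Hsph1, which encodes HSP110, a nucleotide exchange factor of HSP70, and Hspe1, which encodes the mitochondrial co-chaperonin HSP10, are shown because they were among the members with the largest difference between libraries, and Dnajb6, which encodes an HSP40, because it held the element at a ratio near 1. Hspe1 shares its element with the divergent neighbor Hspd1, which encodes HSP60, and that stretch holds 2 overlapping matches. Capitals mark the element or, in the Hsph1 site before the start, the pair.
Hsph1, before the start, chr5:149636351-149636380, minus strand: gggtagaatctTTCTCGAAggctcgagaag
Hsph1, after the start, chr5:149636280-149636308, minus strand: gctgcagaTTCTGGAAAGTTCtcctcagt
Hspe1, chr1:55088053-55088082, plus strand: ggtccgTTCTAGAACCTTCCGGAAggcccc
Dnajb6, chr5:29735844-29735872, plus strand: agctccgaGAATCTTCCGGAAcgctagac

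Genes of the endoplasmic reticulum held another element. The endoplasmic reticulum stress element, CCAAT followed by CCACG with 9 bases between, was found on either strand in the windows of 6 of the 10 members of that compartment, of 0 of the other 20 members and of 0.137% of the genes. Its matches are shown in capitals, with 2 in Hsp90b1, and those of Calr and the near site of Hsp90b1 read on the opposite strand. A match is a description of letters, and binding was not measured.
Hspa5, chr2:34772020-34772048, plus strand: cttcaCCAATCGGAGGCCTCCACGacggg
Hsp90b1, far site, chr10:86705633-86705661, minus strand: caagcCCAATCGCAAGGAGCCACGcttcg
Hsp90b1, near site, chr10:86705528-86705556, minus strand: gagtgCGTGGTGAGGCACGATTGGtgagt
Calr, chr8:84847070-84847098, minus strand: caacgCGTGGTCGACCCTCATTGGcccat
Canx, chr11:50325795-50325823, minus strand: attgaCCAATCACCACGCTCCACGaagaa
Dnajc3, chr14:118937822-118937850, plus strand: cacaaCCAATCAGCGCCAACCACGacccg
Pdia6, chr12:17266486-17266514, plus strand: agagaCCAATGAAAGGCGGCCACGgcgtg

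In general capillary cells the HSP70 genes Hspa1a and Hspa1b and the HSP110 gene Hsph1 stood higher in the metastatic library, and most other chaperones were close to their control level. Of the 37 members 4 were higher past 1.2-fold, namely Hspa1a, Hspa1b, Hsph1 and Hsp90aa1, and 1 was lower, Cryab. Among all 11220 genes with at least 100 UMIs, 13.7% were higher and 7.91% were lower past that fold, and 4 of 37 is not above the first share. The median log2 ratio was 0.08 over the members and 0.02 over all genes, and 27 of the 37 members lay above 0, where 6130 of all genes did. The middle 95% of all genes lay between -0.51 and 0.66, and Hspa1a, Hspa1b and Hsph1 lay above it.

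**Figure D1:**
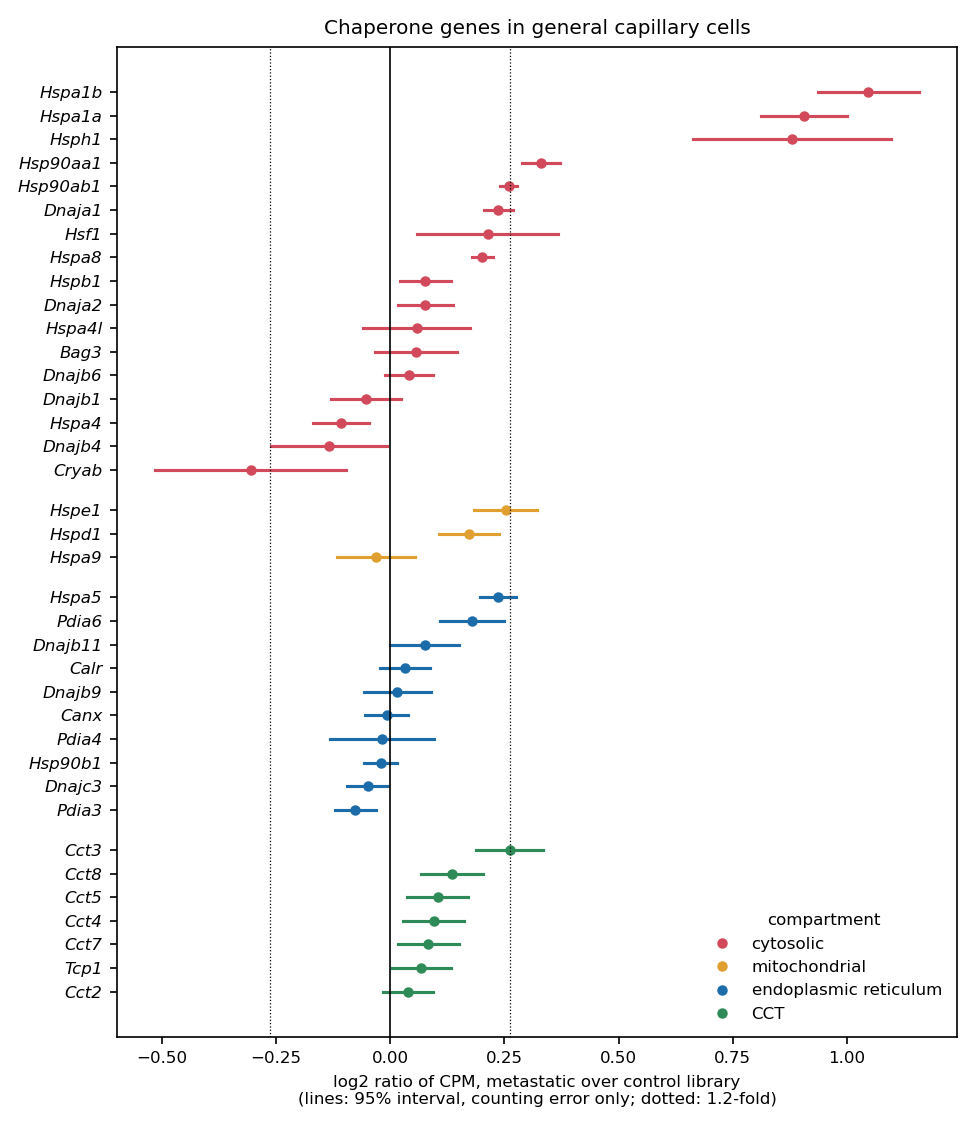
Log2 ratio of CPM (metastatic over control library) of the 37 members in general capillary cells, grouped by compartment. Points are ratios, lines the 95% interval of the counts and dotted lines 1.2-fold in either direction. Hspa1b, Hspa1a and Hsph1 lie between 0.88 and 1.05, and the members of the endoplasmic reticulum lie between -0.08 and 0.24.

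Hspa1b stood at 31.5 CPM (1010 UMIs) in control cells and at 65.0 CPM (1968 UMIs) in metastatic cells. Its log2 ratio was 1.05 (95% interval 0.94 to 1.16), or 2.07-fold. Hspa1a stood at 44.5 CPM (1430 UMIs) and 83.4 CPM (2527 UMIs), a log2 ratio of 0.91 (0.81 to 1.00). Both genes lie on chromosome 17 on the minus strand, Hspa1a at 34969190 to 34972156 and Hspa1b at 34956436 to 34959238. Their transcripts share 49.5% and 52.5% of their stretches of 89 bases, but 0 of 412 in the last 500 bases, which the 3′ assay reads most. How the authors' counting treated reads that match both was not stated, so each value has this uncertainty.

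Hsph1 was scarce, with 8.69 CPM (279 UMIs) in control cells and 15.98 CPM (484 UMIs) in metastatic cells. Its log2 ratio was 0.88 (0.66 to 1.10). Hsp90aa1, the inducible HSP90, stood at 269.7 and 339 CPM, a log2 ratio of 0.33 (0.29 to 0.37). These 4 genes were higher in the metastatic library beyond counting error.

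The other cytosolic members with positive ratios stayed within 1.2-fold. Hsp90ab1, the constitutive HSP90, stood at 1367 and 1636 CPM, a log2 ratio of 0.26 (0.24 to 0.28) that lies just inside the fold of 0.26. Dnaja1, an HSP40 partner of HSP70, stood at 463 and 546 CPM (0.24, 0.20 to 0.27). Hspa8, the constitutive HSP70, had a ratio of 0.20 (0.18 to 0.23). Hsf1 itself stood at 20.5 CPM (658 UMIs) and 23.8 CPM (720 UMIs), a ratio of 0.21 (0.06 to 0.37).

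Several partners of HSP70 did not have ratios of this size. Dnajb1 stood at 90.8 CPM (2914 UMIs) and 87.5 CPM (2649 UMIs) in control and metastatic cells, a log2 ratio of -0.05 (-0.13 to 0.02). Bag3, an HSP70 co-chaperone of selective autophagy, stood at 63.2 and 65.7 CPM (0.06, -0.03 to 0.15). Hspb1 stood at 167 and 176 CPM (0.08, 0.02 to 0.13). The intervals of all 3 lie wholly under the ratio of Hsp90aa1 in the same cells, and under those of the HSP70 pair.

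The lowest ratio was that of Cryab, which encodes the small heat shock protein alpha-B crystallin, with 13.7 CPM (440 UMIs) in control cells and 11.1 CPM (336 UMIs) in metastatic cells. Its log2 ratio was -0.31 (-0.51 to -0.10), and it came within 1.2-fold with cells thinned to 2000 UMIs (-0.13) and with 3 markers required for the class (-0.17). Without barcodes that carried markers of other lineages it was -0.74, or -0.40 when red cell markers did not count as such. Cryab stood at 434 and 428 CPM in barcodes of 11 to 50 UMIs, which hold mostly free RNA, so its level there was far above that in the cells. What free RNA contributes to its UMIs in cells was not tested. Dnajb4, an HSP40, stood at 34.5 and 31.5 CPM (-0.13, -0.26 to -0.01), and Hspa4, an HSP110 relative, at 144 and 134 CPM (-0.11, -0.17 to -0.05). The remaining cytosolic members, Hspa4l, Dnaja2 and Dnajb6, had ratios of 0.04 to 0.08.

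Of the 3 mitochondrial members, the chaperonin pair was higher within 1.2-fold. Hspe1 stood at 100.1 CPM (3215 UMIs) and 119 CPM (3615 UMIs), a log2 ratio of 0.25 (0.18 to 0.32). Its partner Hspd1 stood at 114 and 128 CPM (0.17, 0.11 to 0.24). Hspa9, the mitochondrial HSP70, stood at 72.7 and 71.1 CPM (-0.03, -0.12 to 0.05), and its interval lies under those of the pair.

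The 10 members of the endoplasmic reticulum had a median log2 ratio of 0.00, which became -0.02 with median-of-ratios or TMM scaling. Hspa5, which encodes the HSP70 of this compartment, BiP, stood at 304 CPM (9774 UMIs) and 359 CPM (10864 UMIs), a ratio of 0.24 (0.20 to 0.28). Pdia6, a disulfide isomerase, had a ratio of 0.18 (0.11 to 0.25). Hsp90b1, which encodes GRP94, had -0.02 (-0.06 to 0.02), the lectin chaperones Calr and Canx had 0.03 and -0.01, and Pdia3, the isomerase that works with them, stood at 262 and 248 CPM (-0.08, -0.12 to -0.03). The other 4, Dnajb9, Dnajb11, Dnajc3 and Pdia4, lay between -0.05 and 0.08. The 6 members with the stress element had ratios from -0.05 (Dnajc3) to 0.24 (Hspa5).

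The 7 CCT subunits, which fold actin and tubulin, all had positive ratios, from 0.04 (Cct2) to 0.26 (Cct3), with a median of 0.10 and 0 past the fold. Cct3 stood at 86.6 and 103.8 CPM (0.26, 0.19 to 0.34), and the other 6 lay at or below 0.14. Of the 37 members 21 had an interval above 0 and 5 one below 0, against 2775 and 1828 of all 11220 genes. An interval narrows as the UMIs of a gene rise, and the genes were not matched for level, so these counts do not set the members apart.

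Other genes of these pathways were counted in the same cells. The 13.7% higher and 7.91% lower of all genes are their background, and the counts of these lists do not set them apart from it. Of 23 genes listed as cytosolic co-chaperones and HSF partners, 3 were higher past the fold. They were Serpinh1 (0.36), Hspa2, another HSP70 (0.36), and St13, an HSP70 co-chaperone (0.33). Serpinh1, the collagen chaperone, works in the endoplasmic reticulum and not in the cytosol. The 2 lower genes were Hspb8, the small heat shock protein that works with BAG3 (51.3 and 33.5 CPM, -0.61), and Hsf2 (-0.32), followed by Ubb within the fold (-0.18). Of 20 endoplasmic reticulum stress genes 2 were higher, Xbp1 at 230 and 301 CPM (0.39) and Creld2 (0.33), followed by Ddit3 within the fold at 0.21. The lower genes were the sensors Ern1 (-0.39) and Eif2ak3 (-0.28), with Herpud1 within the fold at -0.24. Of 8 mitochondrial folding and protease genes 0 passed the fold, with Htra2, Dnaja3 and Trap1 highest (0.17, 0.11 and 0.02) and Lonp1, Clpx and Timm44 lowest (-0.08, -0.07 and 0.00). All 6 prefoldin genes, which pass substrates to CCT, lay within -0.04 to 0.18.

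Immediate early genes bear on the digestion that all cells went through. Of 12 such genes 2 were higher past the fold, Nr4a1 (12.0 and 17.8 CPM, 0.57) and Atf3 (427 and 609 CPM, 0.51), and 0 were lower, a count of the size that 13.7% of 12 genes would give. Ier3 came next at 0.12, while Fosb (-0.18), Zfp36 (-0.09) and Fos (-0.05) were lowest. The median of the 12 was 0.01. The part of the digestion in the HSP70 values was not tested.

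RNA of other cells differed between the libraries within general capillary cells. The summed levels were 1959 CPM control and 824 CPM metastatic for 5 red cell genes, 1686 and 992 CPM for 5 epithelial genes, 357 and 239 CPM for 6 myeloid genes, 175 and 271 CPM for 4 platelet genes and 14.6 and 28.2 CPM for 8 lymphoid genes. Without the 3640 control and 2323 metastatic barcodes that carried at least 2 markers of another lineage, the log2 ratio was 0.78 for Hspa1a, 0.94 for Hspa1b and 1.04 for Hsph1. In barcodes of 11 to 50 UMIs Hspa1a stood at 151 CPM (99 UMIs, control) and 133 CPM (97 UMIs, metastatic), and Hspa1b at 174 and 155 CPM. Both levels lie above those of the cells, and the log2 ratios of the libraries were -0.18 (-0.60 to 0.24) and -0.16 (-0.55 to 0.23). The part of free RNA in the HSP70 values was not tested.

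The difference in the HSP70 pair recurred in aerocytes and vein cells. In aerocytes Hspa1a stood at 59.6 CPM (675 UMIs) and 106 CPM (995 UMIs), a log2 ratio of 0.83 (0.69 to 0.97), and Hspa1b at 35.0 and 70.9 CPM, a ratio of 1.02 (0.84 to 1.202). Hsph1 had 0.66 (0.30 to 1.01) from 118 and 154 UMIs, and Hsp90aa1 had 0.26 (0.18 to 0.33), just inside the fold. In aerocytes 3 members were higher and 0 lower past the fold, where 12.9% and 7.63% of 9504 genes were. Hspa8 (0.05, 0.00 to 0.09) and Hspa5 (0.05, -0.01 to 0.12) stood closer to 0 in aerocytes than in general capillary cells. Both were picked after their values were seen, and the difference between the classes was not tested. RNA of other cells differed here too, with summed levels of 632 CPM control and 92.1 CPM metastatic for the epithelial genes, 1295 and 847 CPM for the red cell genes, 76.5 and 157 CPM for the platelet genes, 82.8 and 58.4 CPM for the myeloid genes and 7.33 and 20.03 CPM for the lymphoid genes. Without barcodes that held at least 2 markers of another lineage or of lymphatic endothelium, red cell genes not counted, 1146 and 892 aerocytes remained and the ratios were 0.82 for Hspa1a, 1.08 for Hspa1b and 0.69 for Hsph1.

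In vein cells Hspa1a stood at 58.9 CPM (130 UMIs) and 100.5 CPM (269 UMIs), a log2 ratio of 0.77 (0.46 to 1.08). Hspa1b stood at 46.2 and 79.6 CPM, with a ratio of 0.78 (0.44 to 1.14). Hsf1 had 0.79 (0.17 to 1.43) from 33 and 69 UMIs, and Hspd1 0.41 (0.15 to 0.68). With Hsph1 and Cct3 this made 6 higher, and Cryab at 87.9 and 66.9 CPM (-0.39, -0.70 to -0.09) was the 1 lower, beside 15.8% and 14.4% of 6260 genes. The metastatic vein cells also held more RNA of other cells, with 124 CPM control and 3649 CPM metastatic for the epithelial genes, 32.6 and 615 CPM for the myeloid genes, 7.71 and 49.7 CPM for 6 mesenchymal genes and 442 and 1347 CPM for the red cell genes. In the 208 and 248 vein cells left without such barcodes, the ratio was 0.68 for Hspa1a, 0.71 for Hspa1b, 0.98 for Hsf1, 0.32 for Hspd1 and -0.43 for Cryab. That of Hsph1 moved from 0.35 to 0.23, within the fold.

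In artery cells the HSP70 pair did not show a difference at this depth. Hspa1a had 20 UMIs in each library, a log2 ratio of 0.02 (-0.95 to 0.99), and Hspa1b had 18 and 16 UMIs (-0.15, -1.22 to 0.90). The interval of Hspa1a holds its ratios in the other classes. That of Hspa1b holds its vein ratio (0.78) and ends below those of general capillary cells (1.05) and aerocytes (1.02). On so few UMIs the difference from the other classes was not tested. The metastatic artery cells also held RNA of 3 lymphatic endothelial genes, at 1464 CPM (712 UMIs) against 2.03 CPM (1 UMI) in the control cells, with 278 against 24.3 CPM for the myeloid genes and 148 against 14.2 CPM for the platelet genes. Without such barcodes 53 and 46 artery cells remained, and the ratios of Hspa1a (-0.06) and Hspa1b (-0.17) stayed near 0 with wide intervals (-1.25 to 1.12 and -1.71 to 1.32). Only 21 members had at least 100 UMIs there, of which 5 were higher and 2 lower past the fold, beside 20.7% and 17.1% of 1827 genes.

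**Figure D2:**
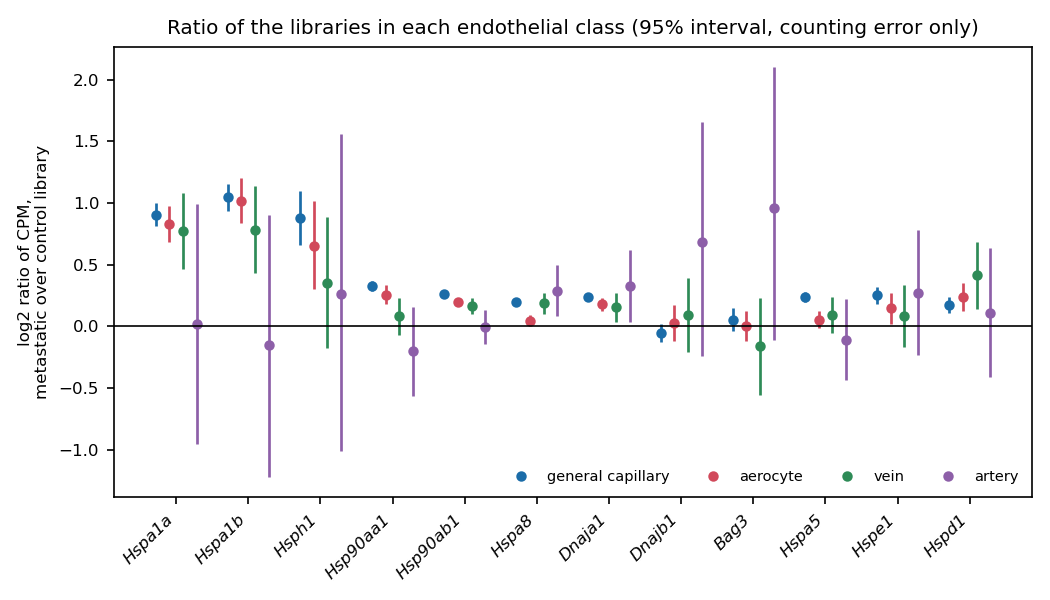
Log2 ratio of CPM (metastatic over control library) of 12 members in the 4 endothelial classes, with 95% intervals of the counts. Hspa1a and Hspa1b lie between 0.77 and 1.05 in general capillary, aerocyte and vein cells, and the artery intervals span 0.

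Other cells of the sort give the same measure outside endothelium, from few cells. In 46 control and 47 metastatic lymphoid-marked cells Hspa1a and Hspa1b had 1 UMI each among control cells and 0 among metastatic cells. Hsp90aa1 in these cells had 75 and 113 UMIs, a log2 ratio of 0.55 (0.12 to 1.00), and Hsp90ab1 had 252 and 344 UMIs (0.41, 0.17 to 0.65). Hsph1 had 3 and 14 UMIs (2.19, 0.34 to 4.63). In 43 and 42 myeloid-marked cells Hsp90ab1 had a ratio of 0.32 (0.15 to 0.49). Hsp90aa1 had 0.22 (-0.12 to 0.56) there. Each of these HSP90 ratios lay inside the middle 95% of the genes with at least 100 UMIs. That range was -0.62 to 0.75 over 569 genes in lymphoid-marked and -0.95 to 0.80 over 1541 genes in myeloid-marked cells. In lymphoid-marked cells 5 of the 8 members with at least 100 UMIs were higher past 1.2-fold and 0 lower, beside 112 and 89 of all genes. In myeloid-marked cells 7 of 21 were higher and 0 lower, beside 419 and 326. These counts rest on few cells, and the difference was not tested. Hsph1 in lymphoid-marked cells rests on 17 UMIs in all.

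The share of cells with an HSP70 transcript differed as well. With each cell thinned to 2000 UMIs, 510 of 4947 general capillary cells of the control library held a UMI of Hspa1a or Hspa1b, or 10.3% (Clopper-Pearson 9.48 to 11.2). In the metastatic library 811 of 4461 did, or 18.2% (17.1 to 19.3). Without thinning the shares were 24.2% and 34.7%. In lymphoid-marked cells, whose median depths were 4743.5 and 4606 UMIs before thinning, the shares were 1 of 46 (2.17%, 0.055 to 11.5) and 0 of 46, which allows a share of cells with a UMI of up to 6.52%. The control interval of the lymphoid-marked cells holds the control share of general capillary cells, so at this number of cells that share was not set apart from background.

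Aerocytes had shares of 11.3% (9.66 to 13.1) and 15.5% (13.4 to 17.9). Vein cells had 15.9% (11.5 to 21.03) and 17.8% (13.7 to 22.6), which overlap, and artery cells had 15.9% (10 of 63) and 10.2% (6 of 59), which overlap too.

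Most positive cells held 1 UMI of the pair and a small group held many. At least 3 UMIs were found in 49 control and 127 metastatic general capillary cells, 0.99% and 2.85% of the cells. They carried 25.7% and 39.9% of the HSP70 UMIs, and the highest cell held 10 and 18. In aerocytes 1.70% and 4.28% of the cells held at least 3 UMIs and carried 37.6% and 56.5% of the HSP70 UMIs.

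**Figure D3:**
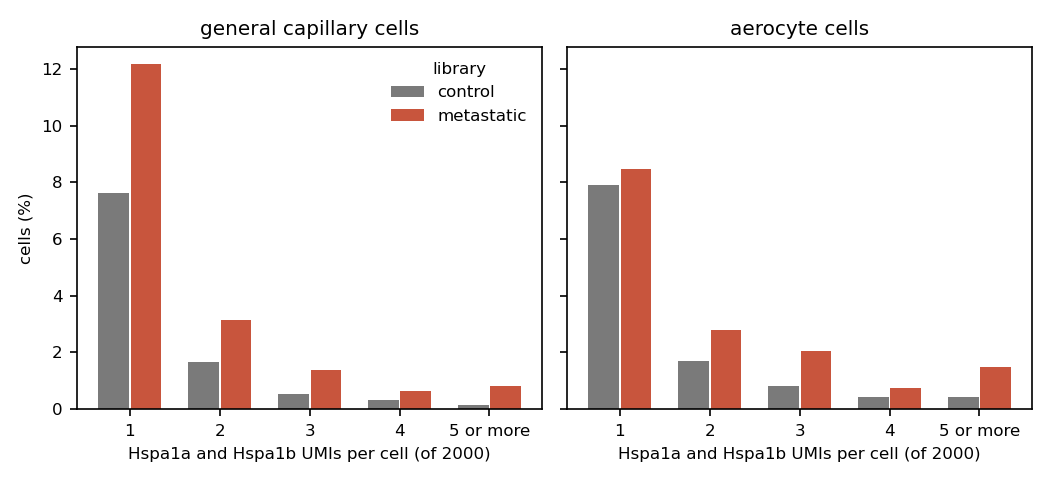
Percent of general capillary (left) and aerocyte (right) cells by the number of Hspa1a and Hspa1b UMIs among 2000 UMIs per cell, in the control and metastatic library. Bars stand for 1, 2, 3, 4 and 5 or more UMIs, cells with 0 UMIs are not drawn, and each metastatic bar is higher than its control bar, with 12.2% against 7.64% of general capillary cells at 1 UMI.

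In general capillary cells and aerocytes Hspa1b was found more often in cells with Hspa1a than in cells without it, though most cells with Hspa1a held no Hspa1b. Among general capillary cells with Hspa1a, 17.4% of 316 (control) and 26.6% of 516 (metastatic) also held Hspa1b, against 4.19% and 7.48% of the cells without Hspa1a. Among aerocytes the values were 20.4% of 108 and 39.1% of 115, against 3.61% and 5.42%. Reads assigned to the wrong copy would add to this overlap, which was not tested.

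Across cells the HSP70 count was compared with immediate early and other heat shock genes, as a description of sparse counts within 1 library. Its correlation with the summed count of the 12 immediate early genes was 0.33 in 1354 control and 0.43 in 1074 metastatic aerocytes, and 0.09 and 0.20 in 4947 and 4461 general capillary cells. With Hsph1, Dnajb1, Bag3, Hspa8 and Hsp90aa1 the values lay between -0.06 and 0.12 in these classes. These single genes had far fewer UMIs than the sum of 12, with means of 0.02 for Hsph1 and 1.755 for Hspa8 in control general capillary cells. Sparse counts pull a correlation toward 0, so the single genes cannot be ranked against the sum. The points share library, depth of 2000 UMIs and digestion. Mean immediate early counts were 28.2 and 28.8 UMIs per general capillary cell and 18.8 and 19.5 per aerocyte.

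Counts of most members varied between cells about as counting alone would give. The variance over the mean had a median of 1.06 control and 1.09 metastatic over the 37 members in general capillary cells. It was above 1.5 in at least 1 library only for Hspa1a, Hspa1b and Hspb1, in general capillary cells and in aerocytes. For Hspb1 it was 1.90 and 2.70 in general capillary cells and 2.36 and 2.51 in aerocytes. Intervals that cover counting error only are thus too narrow for Hspa1a, Hspa1b and Hspb1.

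The largest ratios between endothelial classes were above those between libraries, with 2.28 for Hspb1 in aerocytes and 2.68 for Cryab in vein cells against 1.05 for Hspa1b. The ratio of aerocytes to general capillary cells was measured in each library on its own cells, and 6 members were higher past 1.2-fold in both and 0 lower, beside 17.6% higher and 18.8% lower of 10490 genes. Hspb1 stood at 811 CPM in control aerocytes and 167 CPM in control general capillary cells, a log2 ratio of 2.28 (2.24 to 2.33). In the metastatic library it stood at 770.2 and 176 CPM, a ratio of 2.13 (2.08 to 2.18). It was detected in 64.3% and 61.2% of aerocytes and in 23.3% and 22.1% of general capillary cells at 2000 UMIs.

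Dnajb4 stood at 115 and 34.5 CPM in control aerocytes and general capillary cells, a log2 ratio of 1.73 (1.62 to 1.85), and at 1.77 (1.64 to 1.89) in the metastatic library. Bag3 stood at 111 and 63.2 CPM, a ratio of 0.81 (0.71 to 0.92), and at 0.76 (0.65 to 0.87) in the metastatic library. Smaller ratios were those of Hspa1a (0.42 and 0.35), Hspa9 (0.33 and 0.33) and Pdia3 (0.36 and 0.31). Of the 7 CCT subunits 0 passed the fold. Without the barcodes with markers of other lineages or of lymphatic endothelium the members past the fold in both libraries were again Hspb1, Dnajb4, Bag3, Hspa1a, Hspa9 and Pdia3. Dnajb1 went the other way within the fold in the metastatic library, with -0.31 (-0.42 to -0.20) and -0.23 (-0.35 to -0.11).

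**Figure D4:**
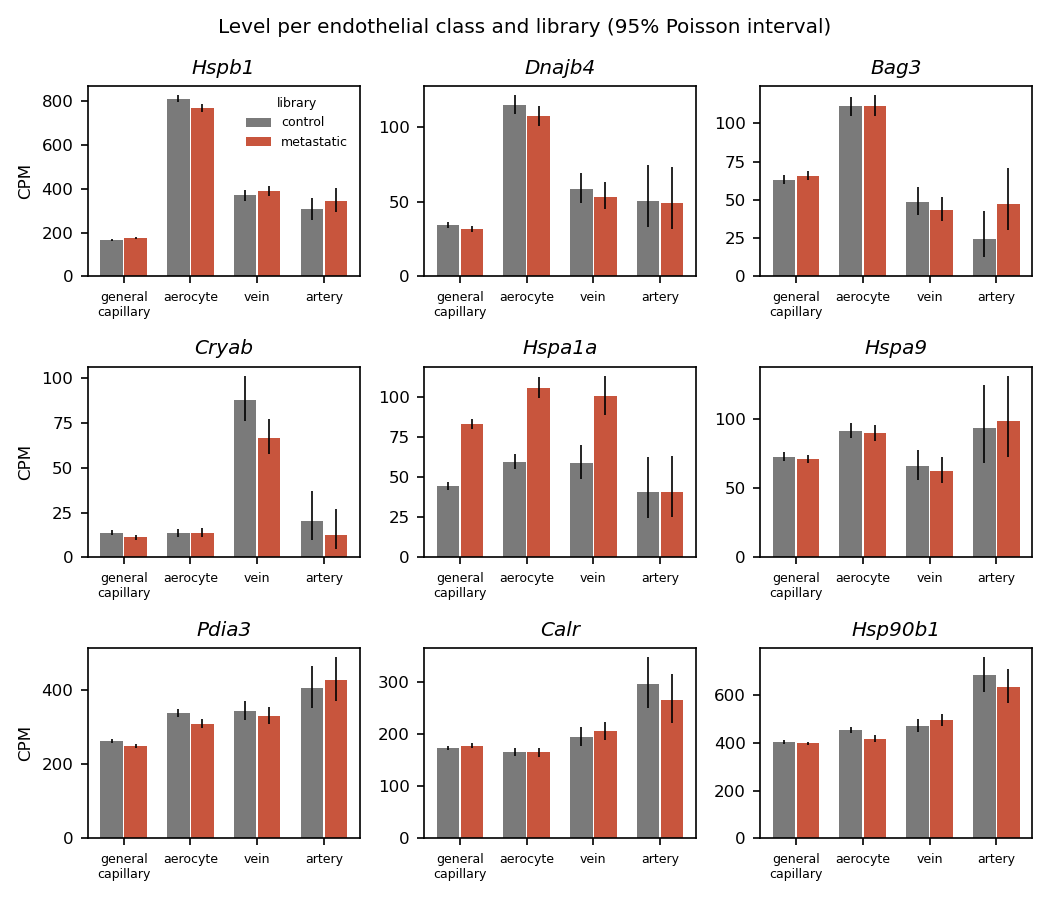
Level (CPM) of 9 members in the 4 endothelial classes of the control and metastatic libraries, with 95% Poisson intervals. Hspb1, Dnajb4 and Bag3 are highest in aerocytes, Cryab in vein cells, and Calr and Hsp90b1 in artery cells.

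Vein cells were set apart by Cryab. It stood at 87.9 CPM in control vein cells and 13.7 CPM in control general capillary cells, a log2 ratio of 2.68 (2.43 to 2.93), and at 2.59 (2.32 to 2.86) in the metastatic library. Hsph1 had 1.41 (0.95 to 1.85) and 0.89 (0.52 to 1.23), and Hspb1 had 1.15 in both libraries. Dnajb4 had 0.76 in both, and Hspa1a, Hspa1b, Pdia3, Pdia4 and Pdia6 had 0.27 to 0.56. These 9 were higher in both libraries, and 1 was lower, Bag3 (-0.38 and -0.60), beside 10.9% and 17.5% of 10232 genes. Without barcodes with markers of other lineages the ratios of Hspa1a and Hspa1b fell within the fold in at least 1 library, which left 7 members higher, with Cryab at 2.86 and 2.84. Bag3 was thus above general capillary cells in aerocytes and below them in vein cells.

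In artery cells 5 of the 10 members of the endoplasmic reticulum were higher past the fold in both libraries. Hsp90b1 stood at 681 CPM (336 UMIs) in control and 633 CPM (308 UMIs) in metastatic artery cells, log2 ratios to general capillary cells of 0.76 (0.60 to 0.91) and 0.67 (0.51 to 0.84). Calr had 0.77 and 0.58, Pdia3 0.62 and 0.78, Canx 0.39 and 0.39, and Dnajc3 0.32 and 0.28. Of the other 5, Hspa5 had 0.15 and -0.19, and Dnajb9 -0.43 and 0.03. With Hspb1, Hsph1, Dnajb4, Hspa4, Hspe1 and Hspa9 this made 11 members higher in both libraries, and Dnajb1 (-1.40 and -0.66), Bag3 (-1.38 and -0.47) and Hspa4l (-0.75 and -0.34) were lower, beside 11% and 18.9% of 10102 genes. In 7 of these 14 the interval of at least 1 library included 0, and the class had only 63 and 59 cells. The lymphatic genes given above stood at 1464 CPM in the metastatic artery cells. Without barcodes with markers of other lineages or lymphatic endothelium Hsp90b1 had 0.80 and 0.69 and Calr 0.81 and 0.73, and 6 of the 10 members of the endoplasmic reticulum passed, now with Pdia6. In all 11 were then higher and 6 lower, with no share of all genes taken for these filtered cells. Hspa1a, Hspa1b and Hspa8 were among the lower ones. Hspa1a rested on 15 control and 13 metastatic artery UMIs, and Hspa1b on 10 and 8. Before this filter their control ratios were -0.14 (-0.85 to 0.50) and 0.21 (-0.55 to 0.88). Their metastatic ratios were -1.02 (-1.73 to -0.39) and -0.98 (-1.79 to -0.28). The HSP70 pair thus lay below general capillary cells beyond counting error in the metastatic library only, on few UMIs.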

How the data were processed

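Gene expression was measured by droplet single-cell RNA sequencing of 3′ ends in PECAM1-sorted lung cells, in 1 library per group. The deposited values are raw UMI counts per gene and barcode, which the authors made with Cell Ranger on mm10 (version 3.1.0 per the file headers), with no cell calling or normalization. The annotation release is not given in the sources used here.

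Barcodes with 1000 to 5000 genes and under 20% mitochondrial UMIs were kept. No doublet caller was run. The upper gene limit removed 100 control and 115 metastatic barcodes, and barcodes with markers of 2 of the aerocyte, vein and artery classes (46 and 32) were left out of the classes. Classes needed at least 2 of their markers, and cells with markers of another lineage were named lymphoid-marked, myeloid-marked or epithelial-marked when under 2 endothelial markers were found. UMIs were summed per class and library and scaled to a total of 1000000 (CPM) with exact Poisson 95% intervals. Ratios carry exact conditional binomial intervals and shares Clopper-Pearson intervals, which cover counting error only. With 1 library per group no test was made. Between libraries a gene counted as higher or lower from 1.2-fold, or 0.26 on the log2 scale, with at least 100 UMIs over both libraries. Between classes it had to pass the fold in both libraries. There the limit of 100 UMIs held in each library for the class and the general capillary cells together, so general capillary UMIs alone could meet it. Ratio estimates were tested on simulated Poisson counts, which hold no extra spread between cells, so their coverage says nothing about that spread. Shares, correlations and variances over the mean used cells thinned to 2000 UMIs. A UMI count of 0 was taken to allow a share of up to 3 counts.

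Values are written out for the 8 members with the highest and the 4 with the lowest library ratio in general capillary cells, for Hspa1a, Hspa1b, Hsp90aa1, Hspa5, Hspd1, Hspe1, Hsf1 and Cryab, and for the 6 with the largest aerocyte ratio of 1 sign in both libraries, 18 genes in all. For each further list the 3 highest and 3 lowest genes are named. Other members named beside them were chosen after their values were seen. The members and lists were chosen with earlier results of these data known. Cct6a, on the prefoldin list, was not matched by symbol. Gene positions come from GENCODE M21 (GRCm38, the assembly of mm10). Python 3.11.15, numpy 2.4.6, scipy 1.17.1 and pandas 2.3.3 were used.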

Additional observations from a re-analysis of the deposited data

Results flagged for a closer look

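Hspb1 was on opposite sides of 0 in general capillary cells and aerocytes. Its log2 ratio of the metastatic to the control library was 0.077 (0.02 to 0.13) in general capillary cells and -0.075 (-0.12 to -0.03) in aerocytes, with 1 library per group. Both values lie within 1.2-fold, and the difference between the classes was not tested. The variance over the mean of Hspb1 was 1.90 and 2.70 in general capillary cells and 2.36 and 2.51 in aerocytes. Intervals of counting error alone are therefore too narrow for it. Without barcodes with markers of other lineages or lymphatic endothelium, red cell genes not counted, the ratios were 0.059 (-0.003 to 0.121) and -0.049 (-0.098 to -0.001). With cells thinned to 2000 UMIs the general capillary value was 0.02.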

How the results depend on the processing

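The medians of the 4 compartments, the counts past the fold and the ratios of the 18 named genes were recomputed under 18 alternatives where each applied. All 18 named ratios in general capillary cells kept their sign in the 12 alternatives run for them, among them Hspa1a (0.78 to 1.01), Hspa1b (0.94 to 1.12), Hsph1 (0.78 to 1.04) and Cryab (-0.74 to -0.13). The number of lower members, 1, became 0 with 3 general capillary markers, with cells thinned to 2000 UMIs and with a fold of 1.5, and the cause was not tested. The number of higher members ranged from 3 to 6. The difference in the share of cells with an HSP70 UMI, 7.87 percentage points at 2000 UMIs, was 4.36 at 1000 UMIs and 10.4 without thinning, where fewer or more UMIs per cell are read. Scaling by the median of ratios or by TMM lowered each log2 ratio by 0.02 and turned the endoplasmic reticulum median from 0.00 to -0.02. With 3 class markers (983 and 754 aerocytes) the control ratio of Hspb1 to general capillary cells was 2.64. The alternatives that left out barcodes with other lineage markers but did not count red cell genes, in general capillary cells and, with lymphatic markers, in the other classes, were chosen after seeing the data. Free RNA could not be subtracted, since the share set by Sftpc and Scgb1a1 came to 324% and 182%. Leaving out a library would leave 1 group without data, and no paired analysis was possible because each group held 1 library. Depth limits the artery class and Hsph1 most.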
